A study of Mus musculus with 33 samples.

Results

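Transcript levels of 8 genes of Polycomb repressive complex 2 (PRC2) were examined in mouse embryonic stem cells (ESCs) that lack members of the heterochromatin protein 1 (HP1) family or the H3K9 methyltransferase SETDB1. The genes were taken by name: Ezh1, Ezh2, Eed, Suz12 and Rbbp4, which encode core subunits, and Jarid2, Mtf2 and Phf19, which encode accessory subunits. All 8 were found once among the 55487 genes listed, and all 8 had enough counts to be tested in every comparison. PRC2 places methyl groups on lysine 27 of histone H3, the mark that holds many developmental regulators silent in ESCs. EZH1 and EZH2 are its alternative catalytic subunits, SUZ12 is the scaffold, EED reads the methylated histone and stimulates the enzyme, and RBBP4 contacts histones. The accessory subunits define alternative forms of the complex: JARID2 marks one form, and the Polycomb-like proteins MTF2 and PHF19, which bind CpG-rich DNA, mark another.

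The 33 RNA-seq libraries came from C57BL/6 ESCs in 11 conditions of 3 libraries each. Wild-type set A (titled NK, genotype label WT) was the control of the knockouts (KO) of Hp1α (gene Cbx5), Hp1β (Cbx1) and Hp1γ (Cbx3), of the Hp1α/β double knockout (DKO) and of the Hp1α/β/γ triple knockout (TKO). Wild-type set B (titled WT) was the control of the Hp1α/γ and Hp1β/γ DKO. Setdb1 F/F cells, which carry floxed Setdb1 alleles, were the control of Setdb1 KO cells. By the study's methods, the single and double mutants were constitutive CRISPR/Cas9 lines grown from isolated clones, so a line can carry differences of its clone. The triple mutant was made by Cre transfection of Hp1α/β-null cells with floxed Hp1γ and was harvested a few days later, so it was an acute loss on top of a constitutive one. Its control is given in different ways: the labels of wild-type set A say WT, whereas the paper describes control-vector cells of the same Hp1α/β-null line. The labels were followed, and the libraries of set A held Cbx5 at 478 to 489 and Cbx1 at 430.2 to 445 CPM (library-size scaled counts), against 199.9 to 208 and 94.7 to 98.2 CPM in the Hp1α/β DKO. The DKO, which shares the Hp1α/β loss with the TKO and is described as a constitutive line, was used as an additional reference. The TKO and the DKO were not equal in the shared targets. The log2 fold change of the TKO against the DKO was −1.09 ± 0.05 (SE) for Cbx1 and 0.44 ± 0.03 for Cbx5. ESCs were grown on mouse fibroblast feeders. The series text calls the lines knock-downs, while the labels call them knockouts.

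Total counts ran from 17330936 to 25743149 per library, with a median of 21522569. Each targeted gene was lower in the libraries labelled as lacking it. Cbx5 was at 85.1 to 287 CPM in the 12 libraries labelled as lacking Hp1α against 403 to 554 in all others, and Setdb1 fell from 130.0–135 in Setdb1 F/F to 68.5–72.0 in Setdb1 KO. Cbx1 was at 43.9 to 111 CPM in libraries labelled as lacking Hp1β, against 356 to 464 in the other Hp1 libraries and wild-type sets, and Cbx3 at 61.7 to 100.3 where Hp1γ was labelled as lost, against 157 to 221. In the Setdb1 KO, Cbx1 (113 to 116 against 168 to 174 CPM) and Cbx3 (72.6 to 75.7 against 123 to 128 CPM) were lower as well. Library 2 of the Hp1α/γ DKO stood apart from its 2 partners, and log2 fold changes of the PRC2 genes in this DKO are given with and without it. The 12 feeder fibroblast markers summed to 13 to 65.6 CPM in all libraries, and the 10 pluripotency markers to 1644 to 7304 CPM, lowest in the TKO (1644 to 1697 against 3627 to 3709 in wild-type set A). In such bulk samples, fewer cells that express a gene and less RNA of it per cell cannot be told apart.

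The sequences before the transcription starts are shown for the 2 catalytic paralogs, which differed in how many mutants changed them, and for Jarid2 and Phf19, which had the lowest log2 fold changes of the 8 genes in the TKO and the Setdb1 KO. Each is the 250 bases before the RefSeq start (GRCm38.p6), written 5′ to 3′ on the gene's strand. They lie at chr11:101226464-101226713 (Ezh1, minus strand), chr6:47595031-47595280 (Ezh2, minus strand), chr13:44730524-44730773 (the first listed of 2 Jarid2 starts, plus strand) and chr2:34913977-34914226 (Phf19, minus strand). Capitals mark the CCAAT box, the GC box GGGCGG and the E2F-type motifs TTTCCCGC and TTTGGCGC, on either strand, and neighbouring GC boxes of Phf19 share bases.
Ezh1: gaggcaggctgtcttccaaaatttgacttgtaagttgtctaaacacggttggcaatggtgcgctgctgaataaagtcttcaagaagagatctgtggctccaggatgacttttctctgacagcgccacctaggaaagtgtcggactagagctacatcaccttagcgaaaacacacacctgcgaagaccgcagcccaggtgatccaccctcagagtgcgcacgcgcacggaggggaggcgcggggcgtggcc
Ezh2: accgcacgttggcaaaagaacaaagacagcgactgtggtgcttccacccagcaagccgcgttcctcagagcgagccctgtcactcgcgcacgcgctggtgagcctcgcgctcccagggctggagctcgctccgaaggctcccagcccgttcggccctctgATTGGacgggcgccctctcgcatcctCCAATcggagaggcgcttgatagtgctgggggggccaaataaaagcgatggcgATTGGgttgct
Jarid2: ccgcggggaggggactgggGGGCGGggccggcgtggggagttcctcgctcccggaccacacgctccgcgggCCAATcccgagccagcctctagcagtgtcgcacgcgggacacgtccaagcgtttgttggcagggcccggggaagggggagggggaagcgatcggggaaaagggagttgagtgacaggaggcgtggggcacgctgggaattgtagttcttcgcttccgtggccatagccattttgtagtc
Phf19: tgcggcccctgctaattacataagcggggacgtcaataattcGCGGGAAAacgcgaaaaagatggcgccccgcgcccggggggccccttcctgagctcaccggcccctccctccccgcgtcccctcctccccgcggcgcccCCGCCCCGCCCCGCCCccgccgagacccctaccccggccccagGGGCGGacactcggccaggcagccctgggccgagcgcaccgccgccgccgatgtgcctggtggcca

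The paralogs differ in these letters. Ezh2 has 3 CCAAT boxes and 23 CpG, whereas Ezh1 has none of the motifs and 14 CpG. Phf19 has 31 CpG, 4 GC boxes and 1 E2F-type motif. Of 32851 mouse promoters of this length, 33.8% hold a CCAAT box, 32.7% a GC box and 1.3% an E2F-type motif, and the median promoter has 6 CpG. All 8 genes had at least 1 start with 12 or more CpG, and Suz12 had the most, at 37, with an E2F-type motif as well. A match to these letters is a description of the sequence only.

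Across the 11 conditions the genes differed in how far their levels ranged. Phf19 was the most variable, with a highest condition mean 4.60 times its lowest, followed by Jarid2 (3.51) and Ezh1 (3.45). Suz12 (2.37), Mtf2 (2.35), Eed (2.01) and Rbbp4 (1.91) ranged less. Ezh2 ranged least, from 121 CPM in the Hp1β/γ DKO to 214 CPM in Setdb1 F/F, a factor of 1.76. Spread between libraries of a condition was small beside this, with median coefficients of variation of 1.66% (Jarid2) to 5.91% (Phf19).

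**Figure D1:**
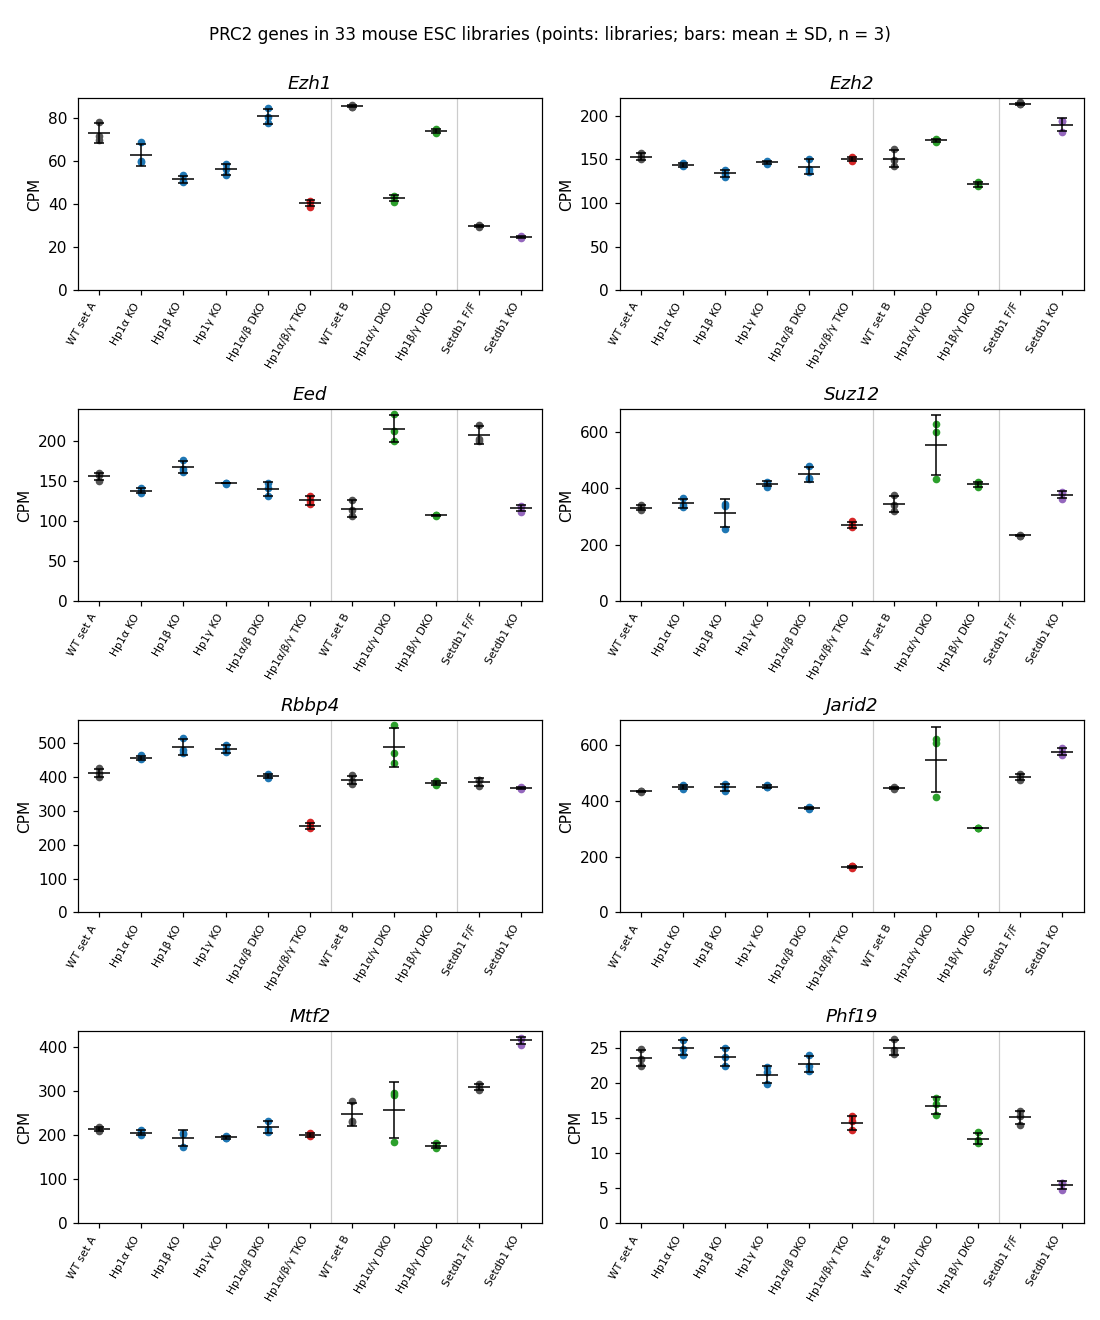
Level of each PRC2 gene in all 33 libraries (y axis, CPM after TMM scaling; points are libraries, bars the mean ± SD of 3 libraries), with grey lines between the sets that share a control. Jarid2 and Rbbp4 were lowest in the Hp1α/β/γ TKO, Phf19 and Ezh1 in the Setdb1 KO, and library 2 of the Hp1α/γ DKO lies below its partners for Suz12, Jarid2 and Mtf2.

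Per unit of transcript length, Eed was the most abundant of the 8 genes in wild-type set A, at 208 ± 11.6 TPM (a length-scaled share of all transcripts; SD, n = 3). Mtf2 (144 ± 2.33 TPM), Jarid2 (133 ± 1.83), Rbbp4 (128 ± 2.60), Suz12 (108 ± 3.18) and Ezh2 (102 ± 1.20) lay close together. No 2 neighbours in this order had overlapping libraries, the closest being Jarid2 (132 to 135 TPM) and Rbbp4 (126 to 131 TPM). Ezh1 was at 25.4 ± 2.01 TPM and Phf19 at 9.46 ± 0.22 TPM. The order was not that of wild-type set B, where Rbbp4 (277 ± 5.20 TPM) and Jarid2 (194 ± 8.47 TPM) lay above Eed (160.1 ± 4.93 TPM) and Mtf2 was at 96.0 ± 6.95 TPM. On counts, set B against set A was −0.07 ± 0.04 for Rbbp4, 0.04 ± 0.03 for Jarid2 and 0.21 ± 0.06 for Mtf2 (log2, SE). For these genes TPM and counts thus did not move alike between the sets. Ezh2 transcripts exceeded Ezh1 transcripts by a factor of 4.01 in set A and 2.95 in set B.

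The numbers of PRC2 genes that passed the test (edgeR quasi-likelihood, Benjamini-Hochberg adjusted p under 0.05 over all genes) are read against the share of all genes that passed, since most genes did so in the strongest mutants. In the TKO against wild-type set A, 7 of 8 PRC2 genes were lower, 0 were higher and Ezh2 did not pass, whereas 81.6% of all genes tested passed, 39.9% lower and 41.7% higher. At an unadjusted p under 0.05 and by DESeq2 the number higher was also 0. With library totals in place of TMM scaling, however, Ezh2 and Mtf2 were higher. On deposited TPM a gene was higher and fewer were lower, so the counts by direction depend on the scaling. The median log2 fold change of the 8 genes was −0.52, beside 0.04 for all genes. With an absolute log2 fold change over 1 required as well, as 42.3% of all genes showed, Jarid2 alone was called. Library ranges did not overlap for the 7 genes that passed, as for 83% of all genes. All of these values are of RNA. By western blot, the paper reports little effect of Hp1 loss on the Polycomb proteins it examined, some PRC2 subunits among them. The paper also describes no clear effect of complete Hp1 loss on H3K27 methylation, and more trimethylated H3K27 after Setdb1 loss.

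In the Setdb1 KO against Setdb1 F/F, all 8 PRC2 genes passed, 3 higher and 5 lower, where 78.9% of all genes passed, 40.2% higher and 38.8% lower. Their median log2 fold change was −0.13 (all genes 0.01), and Phf19 alone passed the fold threshold, as did 29.9% of all genes. With library totals and on deposited TPM, 5 of the 8 PRC2 genes were higher and 2 lower (79.8% and 77.4% of all genes passed). The split by direction in this knockout thus depends on the scaling. Fewer PRC2 genes passed in the lines lacking 1 or 2 Hp1 genes: 4 in the Hp1α KO (45% of all genes passed), 3 in the Hp1β KO (51.1%), 5 in the Hp1γ KO (46.7%), 5 in the Hp1α/β DKO (43.4%), 4 in the Hp1α/γ DKO (46.5%; without its library 2, 8 passed, beside 67.1% of all genes) and 6 in the Hp1β/γ DKO (51.7%). These shares of members lay on both sides of the share of all genes. The 2 wild-type sets also differed, in 3 PRC2 genes (24.8% of all genes). The single knockouts, the Hp1α/β DKO and the TKO share wild-type set A as control, and the Hp1α/γ and Hp1β/γ DKO share set B, so these comparisons are not independent of each other. Against the Hp1α/β DKO, the TKO was again lower in 7 of 8 PRC2 genes and higher in 0, also at an unadjusted p under 0.05 and by DESeq2, where 80.6% of all genes passed, 39.3% lower and 41.3% higher. With library totals, with a stricter count filter or on deposited TPM, the number higher was not 0.

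**Figure D2:**
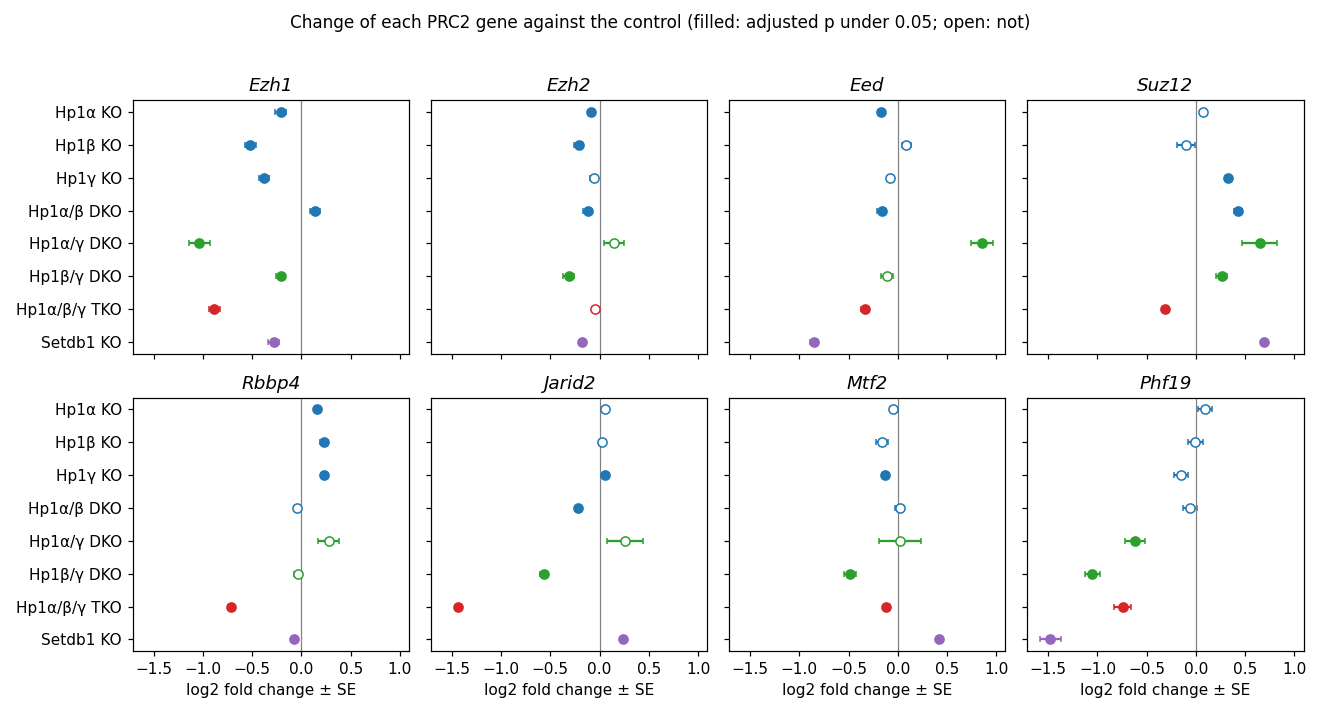
Log2 fold change of each PRC2 gene (x axis, ± SE) in each mutant against its control (rows), 3 libraries per group; filled points have an adjusted p under 0.05. Ezh1 lies left of 0 in all rows but the Hp1α/β DKO, Ezh2 stays within 0.32 of 0, and Suz12, Jarid2 and Mtf2 lie on opposite sides of 0 in the Hp1α/β/γ TKO and the Setdb1 KO.

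Ezh1, the catalytic subunit that prevails in non-dividing tissues, was lower than its control in 7 of 8 mutants and higher in 1. In the TKO it measured 41.2, 41.1 and 38.8 CPM, against 69.5, 77.9 and 71.4 CPM in wild-type set A. The groups lay apart, and the log2 fold change was −0.88 ± 0.06 (SE; adjusted p = 2.1e-11), a level of 0.54 times the control. Against the Hp1α/β DKO, at 80.5, 84.3 and 77.5 CPM, the change was −1.03 ± 0.05 (adjusted p = 1.6e-11). In the Hp1α/γ DKO it was equally low, at 43.3, 41.2 and 43.8 CPM against 84.9, 86.0 and 85.2 CPM in wild-type set B (log2 fold change −1.04 ± 0.10, adjusted p = 0.00031; −0.97 without library 2). The single knockouts gave smaller drops, of −0.21 ± 0.06 (Hp1α, adjusted p = 0.0046), −0.52 ± 0.06 (Hp1β, 2.6e-05) and −0.38 ± 0.05 (Hp1γ, 6.1e-06) on the log2 scale. Setdb1 F/F cells held little Ezh1 to begin with, 29.5 to 30.5 CPM, and the KO had 24.3 to 25.3 CPM (−0.28 ± 0.05, adjusted p = 0.00014). The exception, the Hp1α/β DKO, was higher than wild-type set A by 0.14 ± 0.05 (adjusted p = 0.034) with overlapping libraries, but lay below wild-type set B (−0.09, adjusted p = 0.18). The Hp1β/γ drop (−0.21 ± 0.04, adjusted p = 0.0012) also rests on the control, since against set A it was 0.02. The wild-type sets differed by 0.23 ± 0.05 (adjusted p = 0.0050) for this gene.

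In order of level, Ezh1 ran from Setdb1 KO (24.8 CPM), Setdb1 F/F (29.9), TKO (40.4), Hp1α/γ DKO (42.8), Hp1β KO (51.5), Hp1γ KO (56.1), Hp1α KO (62.8), wild-type set A (72.9), Hp1β/γ DKO (73.9) and Hp1α/β DKO (80.8) to wild-type set B (85.4). Only 2 pairs of neighbours had overlapping libraries, the TKO with the Hp1α/γ DKO and wild-type set A with the Hp1β/γ DKO.

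Ezh2, the catalytic subunit of dividing and embryonic cells, moved far less. It measured 148, 153 and 151 CPM in the TKO and 157, 150 and 153 CPM in wild-type set A. These libraries overlapped, and the log2 fold change of −0.05 ± 0.03 did not pass (adjusted p = 0.15). Against the Hp1α/β DKO (151, 139 and 135 CPM) it was 0.06 ± 0.04 (adjusted p = 0.23). The median gene of chromosome 6, where Ezh2 lies, was 0.36 higher on the log2 scale than that of the other chromosomes in the TKO, a shift whose part in the Ezh2 value was not tested. The largest change was in the Hp1β/γ DKO, at 119, 124 and 120 CPM against 162, 142 and 149 CPM in wild-type set B, a log2 fold change of −0.32 ± 0.05 (adjusted p = 0.00015) without overlap. The Hp1β KO (−0.21 ± 0.05, adjusted p = 0.0029) and the Setdb1 KO (−0.18 ± 0.03, adjusted p = 2.3e-05; 181 to 194 against 213 to 215 CPM) were lower as well. Small drops were measured in the Hp1α/β DKO (−0.12 ± 0.04, adjusted p = 0.038) and the Hp1α KO (−0.08 ± 0.03, adjusted p = 0.049). Ezh2 did not pass in the Hp1α/γ DKO, at 170.2, 171 and 174 CPM (0.15 ± 0.10, adjusted p = 0.27), whereas without library 2 it did (0.19 ± 0.06, adjusted p = 0.015). With library totals in place of TMM scaling, the median of all genes moved to 0.28 in the TKO and in the Setdb1 KO, and Ezh2 to 0.20 and 0.08, below that median in both.

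The Ezh1 to Ezh2 ratio within a library was compared on the TPM scale. Wild-type set A had a ratio of 0.250 ± 0.017 (SD, n = 3), beside 0.158 ± 0.022 in the TKO and 0.291 ± 0.020 in the Hp1α/β DKO. In the Hp1α/γ DKO it was 0.134 ± 0.018 (0.148 and 0.142 in libraries 1 and 3 and 0.114 in library 2) against 0.338 ± 0.015 in wild-type set B. The lowest ratios were those of the Setdb1 pair, 0.0859 ± 0.00604 in F/F and 0.0754 ± 0.00692 in the KO. The TKO ratio fell by 0.67 on the log2 scale against set A and by 0.89 against the Hp1α/β DKO, with no overlap in either. An exact two-sided permutation test gave p = 0.1 for both, which is the smallest that 3 against 3 libraries allow, so no ratio can pass 0.05 in this design. Of the other single and double mutants, the Hp1γ KO and the Hp1α/β DKO did not overlap set A (−0.24 and 0.22 on the log2 scale), while the Hp1α, Hp1β and Hp1β/γ mutants overlapped their controls. Set B itself was higher than set A by 0.44 without overlap. The Hp1α/β DKO (0.275 to 0.313) lay below set B (0.324 to 0.354), so its direction depends on the wild-type set. On the CPM scale the Hp1β KO (−0.30) did not overlap set A.

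**Figure D3:**
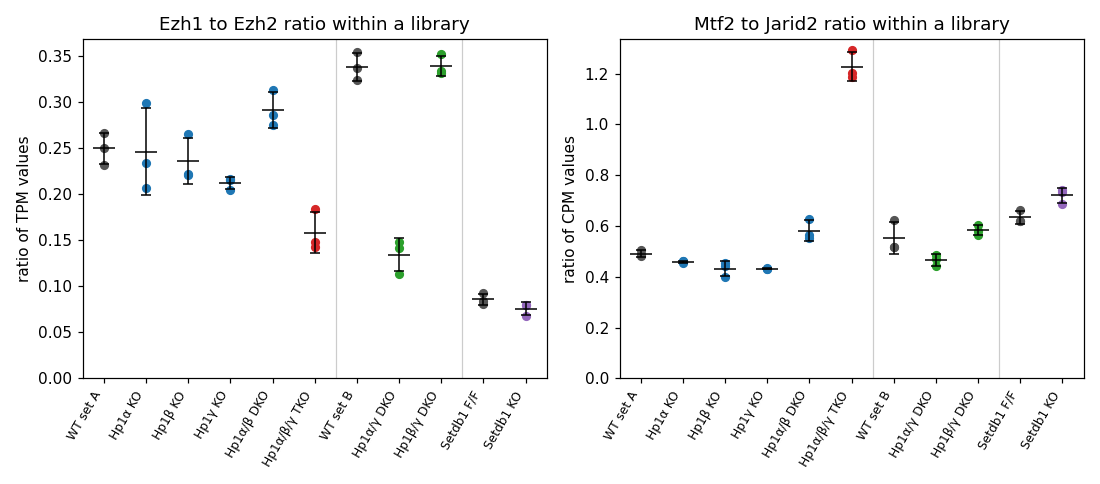
Ratios between transcripts within each library (y axes; left, Ezh1 to Ezh2 on the TPM scale; right, Mtf2 to Jarid2 on the CPM scale) in the 11 conditions; points are libraries and bars the mean ± SD of 3. The Ezh1 to Ezh2 ratio is lowest in the Setdb1 pair, and the Mtf2 to Jarid2 ratio of the TKO (1.19 to 1.29) lies above that of every other library.

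Eed, the subunit that binds trimethylated H3K27, rose in 1 mutant and fell in 4. Its largest fall was in the Setdb1 KO, from 220, 202 and 199 CPM to 119, 117 and 112 CPM, a log2 fold change of −0.85 ± 0.04 (adjusted p = 5.4e-13) and a level of 0.55 times the control. Its only rise was in the Hp1α/γ DKO, from 127, 106 and 114 CPM to 199, 233 and 212 CPM, a log2 fold change of 0.85 ± 0.11 (adjusted p = 0.00091; 0.83 without library 2). The libraries of both pairs lay well apart. In the TKO, Eed measured 121, 125 and 131 CPM against 159, 157 and 150 CPM in wild-type set A (−0.33 ± 0.04, adjusted p = 8.6e-08). The wild-type sets differed in Eed by more than that, by −0.43 ± 0.06 (adjusted p = 7.6e-05) in set B relative to set A. Against set B the TKO value was 0.11 (adjusted p = 0.13) and the Hp1α KO, Hp1γ KO and Hp1α/β DKO values turned from −0.17, −0.08 and −0.16 to 0.27, 0.37 and 0.27. The direction of Eed in these mutants therefore depends on the wild-type set, while the TKO was lower than the Hp1α/β DKO by 0.19 ± 0.05 on the log2 scale (adjusted p = 0.0022), with overlapping libraries.

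Suz12, the scaffold on which the core assembles, was higher than its control in 5 of 8 mutants and lower only in the TKO. The Setdb1 KO rose from 232, 232 and 235 CPM to 383, 386 and 363 CPM, a log2 fold change of 0.69 ± 0.03 (adjusted p = 9.8e-14), with all KO libraries far above the controls. In the Hp1α/β DKO it rose to 479, 431 and 436 CPM from 332, 322 and 342 CPM in wild-type set A (0.43 ± 0.04, adjusted p = 1.0e-07). In the TKO it was at 263, 284 and 268 CPM, which is lower than set A by 0.32 ± 0.03 (adjusted p = 1.2e-08) and lower than the Hp1α/β DKO by 0.76 ± 0.04 (adjusted p = 5.6e-11), without overlap in either case. Rises of 0.33 ± 0.03 (Hp1γ KO, adjusted p = 2.1e-08) and 0.26 ± 0.05 (Hp1β/γ DKO, adjusted p = 0.00077) also passed. In the Hp1α/γ DKO, libraries 1 and 3 held 599 and 627 CPM and library 2 held 432 CPM, and the change from set B was 0.65 ± 0.18 (adjusted p = 0.021), or 0.83 without library 2. In the Hp1β KO, library 1 lay apart at 256 CPM from 338 and 343 CPM in the others, and Suz12 did not pass (−0.10, adjusted p = 0.38; 0.03 without library 1).

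Rbbp4, a histone chaperone that also serves other chromatin complexes, fell mainly in the TKO. There it measured 255, 266 and 249 CPM, against 426, 412 and 402 CPM in wild-type set A and 408, 402 and 398 CPM in the Hp1α/β DKO. The TKO lay below every other library of the series, with log2 fold changes of −0.71 ± 0.03 (adjusted p = 1.3e-14) and −0.68 ± 0.03 (adjusted p = 1.0e-11). The median gene of chromosome 4, where Rbbp4 lies, differed from that of the other chromosomes by −0.17 and −0.20 in these comparisons. The part of this shift in the Rbbp4 values was not tested. The 3 single knockouts were higher than set A, by 0.15 ± 0.03 (Hp1α, adjusted p = 4.2e-05), 0.23 ± 0.04 (Hp1β, 0.00055) and 0.23 ± 0.03 (Hp1γ, 6.4e-07) on the log2 scale. The Setdb1 KO differed little from F/F (365 to 370 against 373 to 392 CPM; −0.08 ± 0.02, adjusted p = 0.0060), and its sign turned with library totals (0.19). The Hp1α/γ DKO held 441, 553 and 469.9 CPM and did not pass (0.28 ± 0.11, adjusted p = 0.070), whereas without library 2 it did (0.22 ± 0.05, adjusted p = 0.0021). Deposited counts were not whole in 18 to 33 of the 33 libraries for Suz12, Mtf2, Jarid2, Rbbp4 and Eed, in 2 for Ezh1 and in 0 for Ezh2 and Phf19. Reads that fit more than 1 place are divided by the authors' counting, and the part of this in the values was not tested.

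Jarid2, an accessory subunit that recruits PRC2 and stimulates it, showed the largest change of the 8 genes in the TKO. It was at 436, 437 and 434 CPM in wild-type set A and at 167, 160 and 166 CPM in the TKO, a log2 fold change of −1.43 ± 0.03 (adjusted p = 1.3e-19) and 0.37 times the control. The Hp1α/β DKO lay between them at 372, 375 and 378 CPM, lower than set A by 0.22 ± 0.03 (adjusted p = 6.0e-06), and the TKO was lower than the DKO by 1.22 ± 0.03 (adjusted p = 1.0e-14). The Hp1β/γ DKO was also lower, at 304, 303 and 303 CPM against 445, 448 and 451 CPM in set B (−0.56 ± 0.04, adjusted p = 9.5e-09). None of these groups overlapped. The 3 single knockouts stayed near the wild type, at 434 to 460 CPM, and only the Hp1γ KO passed, by 0.06 ± 0.02 (adjusted p = 0.048). Jarid2 was higher in the Setdb1 KO, at 566, 574 and 591 CPM against 496, 489 and 476 CPM (0.23 ± 0.02, adjusted p = 3.7e-08). In the Hp1α/γ DKO, libraries 1 and 3 held 621 and 610 CPM but library 2 held 416 CPM, and Jarid2 did not pass (0.26 ± 0.18, adjusted p = 0.27), whereas without library 2 it did (0.46 ± 0.05, adjusted p = 1.1e-06). The median gene of chromosome 13, where Jarid2 lies, was 0.20 higher than that of the other chromosomes in this DKO and 0.17 higher in the TKO. The part of these shifts in the Jarid2 values was not tested.

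From lowest to highest, Jarid2 ran from TKO (164 CPM), Hp1β/γ DKO (303), Hp1α/β DKO (375), set A (436), set B (448), Hp1β KO (449), Hp1α KO (449), Hp1γ KO (452), Setdb1 F/F (487) and Hp1α/γ DKO (549) to Setdb1 KO (577). The 4 conditions from set B to the Hp1γ KO did not differ beyond their spread, since neighbouring libraries overlapped, and the Hp1α/γ DKO overlapped both of its neighbours.

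Mtf2, a Polycomb-like protein that binds CpG islands, rose in 1 mutant and fell in 3. In the TKO it was at 198, 206 and 200 CPM against 210, 213 and 219 CPM in wild-type set A (−0.12 ± 0.03, adjusted p = 0.0013), groups that lay side by side without overlap, and with library totals it was higher by 0.13. It rose in the Setdb1 KO, from 308, 304 and 317 CPM to 419, 421 and 406 CPM (0.42 ± 0.02, adjusted p = 2.2e-11), and fell in the Hp1β/γ DKO, from 278, 231 and 233 CPM to 183, 176 and 171 CPM (−0.49 ± 0.06, adjusted p = 1.3e-05). The Hp1γ KO was lower by 0.13 ± 0.03 (adjusted p = 0.0021). In the Hp1α/γ DKO, 291 and 297 CPM in libraries 1 and 3 stood against 184 CPM in library 2 (0.03 ± 0.21, adjusted p = 0.93; 0.25 without library 2, adjusted p = 0.0077).

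Since Jarid2 fell in the TKO more than Mtf2 did, the Mtf2 to Jarid2 ratio on the CPM scale went from 0.482, 0.488 and 0.505 in set A to 1.19, 1.29 and 1.20 in the TKO. The Hp1α/β DKO had 0.554 to 0.628 and the Setdb1 KO 0.687 to 0.741, against 0.620 to 0.665 in F/F. The ratio rose by 1.32 on the log2 scale against set A and by 1.08 against the Hp1α/β DKO (exact two-sided permutation p = 0.1 for each, the smallest possible). On the TPM scale the TKO ratio rose by 0.84 against set A. The Setdb1 KO change against F/F turned from 0.18 on CPM to −0.10 on TPM. Set B against set A likewise turned from 0.16 to −1.13, so these 2 directions depend on the unit. This ratio was chosen after the values were seen and is given as a description.

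Phf19, the other Polycomb-like subunit, was the least abundant gene and was lower in 4 mutants. It fell in the Setdb1 KO from 14.1, 16.0 and 15.3 CPM to 5.75, 5.84 and 4.77 CPM, a log2 fold change of −1.48 ± 0.11 (adjusted p = 7.2e-10) and 0.36 times the control. In the Hp1β/γ DKO it was at 13, 11.5 and 11.9 CPM against 24.7, 26.3 and 24.2 CPM in set B (−1.05 ± 0.08, adjusted p = 2.4e-08). In the TKO it was at 15.3, 14.6 and 13.3 CPM against 24.9, 23.4 and 22.5 CPM in set A (−0.75 ± 0.08, adjusted p = 1.0e-07) and 24.0, 21.8 and 22.5 CPM in the Hp1α/β DKO (−0.70 ± 0.09, adjusted p = 1.5e-06). The Hp1α/γ DKO had 15.5, 17.9 and 17.0 CPM (−0.62 ± 0.10, adjusted p = 0.0029; −0.62 without library 2). No library overlapped those of its control in these mutants, which are all those that lack Hp1γ together with another Hp1 gene, and the Setdb1 KO. In the Hp1α, Hp1β and Hp1γ KO and the Hp1α/β DKO, Phf19 lay between 19.8 and 26.2 CPM and did not pass. Phf19 rests on 100 to 588 counts per library, and Ezh1, the next lowest, on 482 to 2019.

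The effects in the TKO and in the Setdb1 KO were compared directly, as the difference between the 2 log2 fold changes over all 12 libraries. All 8 genes differed (64.9% of all genes did). The difference was most negative for Jarid2 (−1.70 ± 0.03, adjusted p = 3.3e-21) and Suz12 (−1.03 ± 0.04, adjusted p = 1.5e-15), whose directions were opposite in the 2 knockouts, as was that of Mtf2 (−0.56 ± 0.04, adjusted p = 6.5e-12). Rbbp4 (−0.67 ± 0.04) and Ezh1 (−0.63 ± 0.08) fell further in the TKO. Phf19 (0.71 ± 0.13, adjusted p = 7.4e-05) and Eed (0.49 ± 0.06, adjusted p = 6.7e-08) fell further in the Setdb1 KO, and Ezh2 differed least (0.11 ± 0.04, adjusted p = 0.037). The 2 knockouts have different controls and different parent lines, and the controls themselves differ: Ezh1 was at 29.5 to 30.5 CPM in Setdb1 F/F and at 69.5 to 77.9 CPM in set A.

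**Figure D4:**
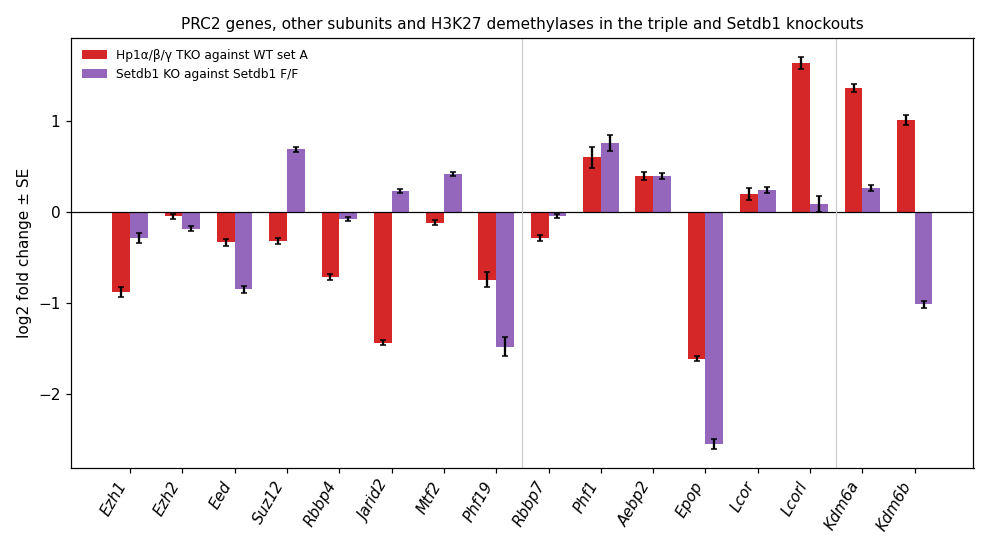
Log2 fold change (y axis, bars with ± SE) of the 8 PRC2 genes, 6 other PRC2 subunits and the H3K27 demethylases (separated by grey lines) in the Hp1α/β/γ TKO and the Setdb1 KO against their controls, 3 libraries per group. Jarid2, Suz12, Mtf2 and Kdm6b have bars of opposite sign in the 2 knockouts, and Epop has the lowest bar of all in both.

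The effect of losing Hp1β was also compared between cells with and without Hp1α, as an interaction over the 12 libraries of wild-type set A, the Hp1α KO, the Hp1β KO and the Hp1α/β DKO. Of the 8 genes, 6 passed, where 45% of all genes did. Ezh1 fell upon loss of Hp1β when Hp1α was present, from 72.9 to 51.5 CPM, and was higher upon its loss when Hp1α was absent, 62.8 against 80.8 CPM (difference 0.87 ± 0.09, adjusted p = 2.6e-07). The difference was also positive for Suz12 (0.47 ± 0.11, adjusted p = 0.0024), Mtf2 (0.23 ± 0.08, 0.032) and Ezh2 (0.18 ± 0.06, 0.029). Ezh2 did not rise upon loss of Hp1β when Hp1α was absent (144 against 142 CPM). The Suz12 and Mtf2 changes in the Hp1β KO did not pass (adjusted p = 0.38 and 0.060). Rbbp4 (−0.42 ± 0.05, adjusted p = 1.2e-06) and Jarid2 (−0.30 ± 0.05, adjusted p = 3.3e-05) went the other way. The genotypes are separate lines, and the number of lines per genotype is not given, so that the interaction and a difference between lines cannot be told apart.

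**Figure D5:**
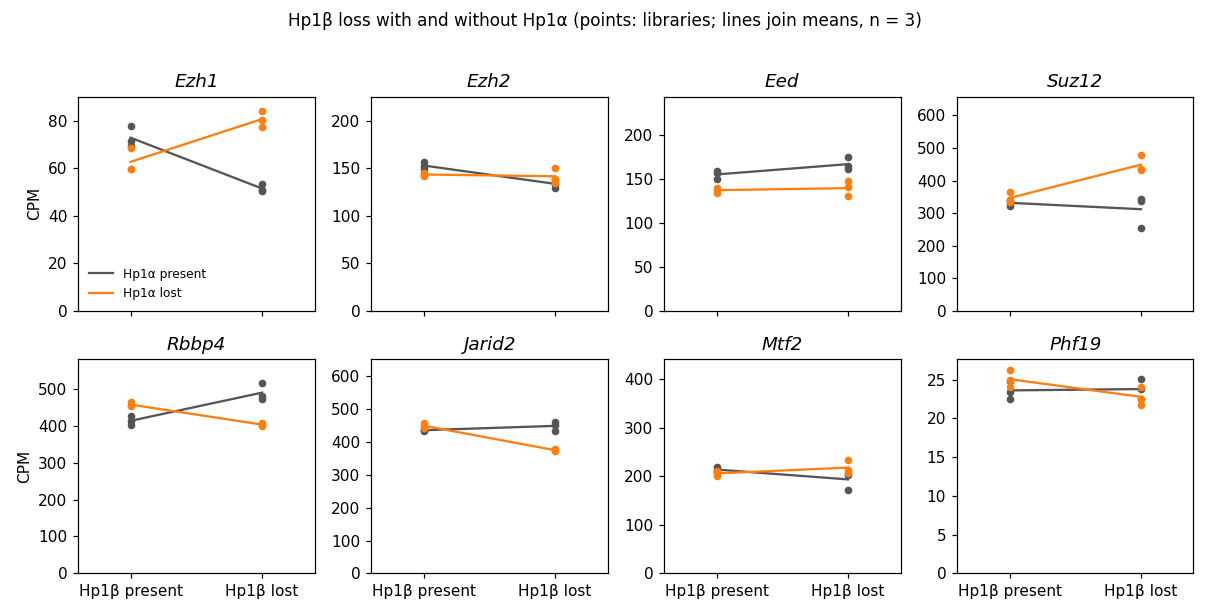
CPM (y axis, from 0) of each PRC2 gene with Hp1β present or lost (x axis), in cells with Hp1α (grey) or without it (orange); points are libraries and lines join the means of 3. The lines cross for all genes but Eed and Suz12, most widely for Ezh1, and spread apart for Suz12.

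Of the 7 other PRC2 subunits listed beside the 8 members, 6 were tested. In the TKO 4 rose and 2 fell, where 41.7% of all genes were higher and 39.9% lower. In the Setdb1 KO 3 rose and 1 fell, where 40.2% of all genes were higher and 38.8% lower. Against the Hp1α/β DKO, 2 were higher and 4 lower in the TKO, beside 41.3% and 39.3% of all genes. Epop, which associates with the Polycomb-like forms, had the largest falls, from 302–310 to 98.4–104 CPM in the TKO (−1.61 ± 0.03, adjusted p = 1.7e-19) and from 309–361 to 54.8–61.1 CPM in the Setdb1 KO (−2.55 ± 0.05, adjusted p = 8.7e-18). In the Hp1β KO, by contrast, Epop rose to 703–801 CPM (1.26 ± 0.05, adjusted p = 1.0e-08). Lcorl, a component of the Polycomb-like forms, rose in the TKO from 17.2–19.8 to 54.3–61.1 CPM (1.63 ± 0.07, adjusted p = 2.5e-14) and did not pass in the Setdb1 KO. Aebp2, the usual partner of JARID2 in the complex, rose by 0.40 ± 0.04 in both (adjusted p = 9.0e-08 and 3.5e-08), although the TKO was lower than the Hp1α/β DKO by 0.33 ± 0.04 (adjusted p = 1.6e-06). Phf1, the third Polycomb-like gene, rose by 0.60 ± 0.12 in the TKO and 0.76 ± 0.09 in the Setdb1 KO, and Lcor by 0.20 ± 0.07 and 0.24 ± 0.03. Against the Hp1α/β DKO, Lcor turned to −0.15 ± 0.05 in the TKO (adjusted p = 0.0096). Rbbp7, the paralog of Rbbp4, was lower in the TKO by 0.29 ± 0.03 (adjusted p = 2.0e-08) and did not pass in the Setdb1 KO (−0.04, adjusted p = 0.14).

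The genes of the H3K27 demethylases, which remove the mark that PRC2 sets, both rose in the TKO, where 41.7% of all genes were higher. Kdm6a went from 59.6–68.1 to 161–175 CPM (1.36 ± 0.05, adjusted p = 2.5e-15) and Kdm6b from 32.2–34.9 to 67.0–73.0 CPM (1.01 ± 0.06, adjusted p = 3.0e-12). For Kdm6b the Hp1α/β DKO was already higher, at 84.9 to 85.7 CPM, and the TKO was lower than it by 0.34 ± 0.05 on the log2 scale (adjusted p = 6.4e-06). Kdm6b fell in the Setdb1 KO from 80.0–81.4 to 39.8–41.2 CPM (−1.02 ± 0.04, adjusted p = 8.7e-14) and Kdm6a rose slightly (0.27 ± 0.03).

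Of 13 genes of canonical PRC1, which binds the PRC2 mark, 6 rose and 7 fell in the TKO (median −0.22). Over all genes, 41.7% were higher and 39.9% lower in the TKO, and 40.2% and 38.8% in the Setdb1 KO. The largest changes were rises of Bmi1 (3.02 ± 0.14) and Phc3 (2.99 ± 0.05). In the Setdb1 KO 5 rose and 7 fell (median −0.26), led by Cbx8 (2.63 ± 0.30) and Bmi1 (1.97 ± 0.08). Bmi1 was low in the controls, at 2.40 to 3.51 CPM in set A. Of 12 genes of variant PRC1, 7 rose and 4 fell in the TKO (median 0.34), with Kdm2b (1.86 ± 0.03), which targets CpG islands, Mga (1.27 ± 0.02) and Pcgf5 (−1.09 ± 0.11) as the largest. Against the Hp1α/β DKO, 4 of the 12 were higher and 5 lower in the TKO (median −0.06), beside 41.3% and 39.3% of all genes. In the Setdb1 KO 1 rose and 4 fell, and Mga was among the latter (−0.72 ± 0.02), with Pcgf6 (−0.68 ± 0.06), while Yaf2 rose (0.51 ± 0.12).

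The list of 41 developmental regulators that carry both H3K4 and H3K27 methylation in ESCs had 30 tested members in the TKO, of which 19 were higher and 6 lower, with a median log2 fold change of 1.15 (1.15 with the gene without control counts at its lower bound). Most are near 0 in ESCs, so that a gene could enter the test through the TKO libraries alone, and the counts are not support for a direction of the list. Wnt1 had 0 counts in set A and 46 over the 3 TKO libraries, which is at least 14.6-fold higher against a floor of 3 counts over the control group. Zic1 rose from 0.05–0.28 to 1.61–1.84 CPM (3.68 ± 0.53), and Olig1 fell from 89.3–91.7 to 6.06–8.14 CPM (−3.76 ± 0.08). In the Setdb1 KO 22 were tested, 11 higher and 10 lower. The shares of all genes higher and lower were 41.7% and 39.9% in the TKO and 40.2% and 38.8% in the Setdb1 KO. Pax6 rose from 0.17–0.90 to 13.2–16.0 CPM (4.87 ± 0.24) and Neurog1 from 0–0.20 to 0.81–1.26 CPM (3.61 ± 0.65), and Nkx2-2 had 1 count in F/F and 39 in the KO (ratio 34.8, 95% exact interval 5.89 to 1411, counting error only).

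Genes of the cell cycle, with which Ezh2 is known to be co-expressed, are given for the same knockouts. Of 22, 8 rose and 12 fell in the TKO (median −0.36), and 2 rose and 20 fell in the Setdb1 KO (median −0.55). For this list and the next 2, the shares of all genes are the same: 41.7% higher and 39.9% lower in the TKO, and 40.2% and 38.8% in the Setdb1 KO. E2f2 (−1.35 ± 0.21), Ccne1 (−1.11 ± 0.03) and Cdk1 (−1.11 ± 0.04) led in the TKO, and E2f2 (−2.24 ± 0.07), Ccne1 (−1.93 ± 0.04) and Cdkn1a (1.82 ± 0.04), the CDK inhibitor, in the Setdb1 KO. Of the 10 pluripotency markers, 7 fell and 1 rose in the TKO, with Tdgf1 (−2.63 ± 0.02), Sox2 (−1.59 ± 0.03) and Nanog (−1.50 ± 0.03) as the largest, and 8 fell and 2 rose in the Setdb1 KO, led by Tfcp2l1 (−1.20 ± 0.02), Klf4 (−0.89 ± 0.03) and Tdgf1 (−0.77 ± 0.02). These lists changed in the same knockouts as the PRC2 genes, and their part in the PRC2 values was not tested. Of the feeder markers, 8 of 12 were tested in the TKO (2 higher, 5 lower) and 3 in the Setdb1 KO (1 higher, 2 lower). Thy1 was lowest in both (−3.42 ± 0.16 and −2.73 ± 0.21), Col3a1 (2.55 ± 0.29) rose and Dcn (−2.49 ± 0.44) fell in the TKO, and Col1a1 (−1.12 ± 0.27) fell and Fbn1 (0.28 ± 0.10) rose in the Setdb1 KO. In the Hp1α/γ DKO the list summed to 13 to 13.6 CPM against 55.8 to 65.6 CPM in set B, and its part in the Eed and Ezh1 values there was not tested.

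The genes whose mean log2 CPM followed those of the catalytic and reader subunits most closely over the 11 conditions, among 11443 genes at 5 CPM or more, were Tbc1d16 (Pearson's r = 0.97), Ocln (0.96) and Tnfaip8 (0.96) for Ezh1. For Ezh2 they were Kif15 (0.96), Dars (0.96) and Mymx (0.95), and for Eed they were Aggf1 (0.95), Pccb (0.94) and Zfp553 (0.93). Without the TKO and the Setdb1 KO, the same genes had r of 0.92 to 0.97 over 9 conditions. These are the highest of many values and are a description over conditions that share libraries' scaling and controls.

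The scale of the values mattered for the genes with several transcripts. The TPM that the authors deposited for Rbbp4 amounted to 0.31 per CPM in set A and 0.71 in set B, and for Mtf2 to 0.67 and 0.39. Set B against set A therefore gave 1.10 for Rbbp4 and −0.58 for Mtf2 on the log2(TPM + 1) scale, where the counts gave −0.07 and 0.21. For Jarid2 the TPM per CPM varied within the TKO itself, from 0.36 to 0.56. Fold changes between groups were therefore read from counts. TPM were used for the order of genes within a set, for ratios within a library and for an alternative fit.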

How the data were processed

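RNA-seq was performed on 33 libraries from mouse ESCs. Per the labels' processing notes, reads were aligned to GRCm38.p5 with TopHat2 (2.1.1) and quantified with RSEM, and the authors deposited estimated counts and TPM per gene. Reads that fit several places are divided among them by this method, so some estimated counts are not whole. The strand setting of the counting was not given in the sources used here. The deposited tables also hold the authors' own log2 fold changes and p-values of their comparisons, which were not used. Positions are from the GRCm38 annotation and promoters from RefSeq (GRCm38.p6).

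Estimated counts were rounded, filtered with filterByExpr (minimum count 10), scaled by TMM and tested in R (4.3.3) with the edgeR (4.0.16) quasi-likelihood test on the groups of each comparison, with Benjamini-Hochberg adjustment over all genes tested. A call required an adjusted p under 0.05, and where stated an absolute log2 fold change over 1. CPM are TMM-scaled. The 2 interaction tests used 12 libraries each. Alternatives were DESeq2 (1.42.0), RLE factors, library totals, other filters, a joint fit, the other wild-type set, each library left out, a replicate block and limma (3.58.1) on log2(TPM + 1), the last of these and the other wild-type set in the Hp1α by Hp1β test being chosen after seeing the data. The test was tried on simulated data. Total counts of 17330936 to 25743149 per library limit precision chiefly for Phf19, and intervals on counts cover counting error only. The labels do not say that libraries came from separate cultures. The paper describes biological replicates of each sample, and independent experiments for the Cre-transfected and control-vector cells. The p-values measure the spread between these libraries.

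All tested genes of the 8 members, the other PRC2 subunits, the H3K27 demethylases and the targeted genes could be named, with the 3 largest changes past the threshold from every other list and the 3 genes most alike to Ezh1, Ezh2 and Eed. Members and lists were chosen with earlier results of these data known. One subunit of the other PRC2 list was not matched in the tables, and 1 gene that the rule names is not reported here.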

Additional observations from a re-analysis of the deposited data

Results flagged for a closer look

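For 6 PRC2 genes of 8 the effect of losing Hp1β differed between cells with and without Hp1α (edgeR interaction test, adjusted p under 0.05). Of all genes tested, 45% passed. The difference, as the log2 effect in Hp1α-lacking cells minus that in cells with Hp1α, was 0.87 for Ezh1, 0.47 for Suz12, 0.23 for Mtf2, 0.18 for Ezh2, −0.30 for Jarid2 and −0.42 for Rbbp4. When set B replaced set A, an alternative chosen after seeing the data, these were 1.10, 0.52, 0.44, 0.16, −0.26 and −0.50, of which Ezh2 did not pass (adjusted p = 0.10), and Eed passed at −0.51 (adjusted p = 0.00010). With set B, 52.1% of all genes passed. The genotypes are separate lines, and how many lines each had is not given, so a difference between lines cannot be told apart from the interaction.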

How the results depend on the processing

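Of 1416 alternative values of single genes, 1239 kept their direction and side of the threshold, 87 lost the call, 41 gained one and 49 changed sign; the causes were not tested. Depth limits Phf19 most.

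With the other wild-type set as control, Eed was 0.27 (Hp1α KO), 0.37 (Hp1γ KO), 0.27 (Hp1α/β DKO) and 0.11 (TKO). Ezh1 was −0.088 (Hp1α/β) and 0.019 (Hp1β/γ), Jarid2 −0.0077 (Hp1β), and in the Hp1α/β DKO Mtf2 was −0.19 and Rbbp4 0.034. With that set, 2 PRC2 genes were higher in the Hp1α KO (49% of all genes passed) and 2 in the Hp1β KO (58.4%). With library totals, Jarid2 was −0.021 (Hp1β), Ezh2 −0.027 and Mtf2 −0.14 (Hp1α/γ), Ezh2 0.20 and Mtf2 0.13 (TKO), Ezh2 0.085 and Rbbp4 0.19 (Setdb1), and Eed 0.091 and Mtf2 0.13 (TKO against Hp1α/β). The genes higher then numbered 1 (Hp1α/β), 1 (Hp1α/γ), 2 (TKO), 5 with 2 lower (Setdb1) and 2 (TKO against Hp1α/β), while the median of all genes moved to 0.28 in the TKO and Setdb1 KO and to −0.19 in the Hp1α/γ DKO. In the same order, 42.6%, 44.8%, 81.7%, 79.8% and 80.7% of all genes passed. Phf19 in the Hp1β KO was 0.014 with RLE factors and DESeq2 and 0.010 in the joint fit. In the Hp1α KO the number higher was 2 with DESeq2 and without the filter, and 0 in the joint fit, which also gave 1 lower (Hp1γ), 1 higher and 1 lower (Hp1α/β), 5 higher (Hp1α/γ) and 1 higher (set B). Of all genes, 39.9% passed in the Hp1α KO with DESeq2 and 26.6% without the filter. The joint fit passed 23.7% (Hp1α), 25.8% (Hp1γ), 26.9% (Hp1α/β), 57.2% (Hp1α/γ) and 13.7% (set B). With at least 10 counts in every library, Mtf2 was −0.0047 (Hp1α/γ), Ezh2 0.047 (TKO) and 1 gene was higher in the TKO against Hp1α/β (81.4% of all genes passed).

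On deposited TPM, Mtf2 was 0.011 (Hp1α), Eed −0.067 (Hp1β), Ezh2 −0.15, Mtf2 −0.46 and Rbbp4 −0.17 (Hp1α/γ), Ezh2 0.22 and Suz12 0.054 (TKO), Ezh1 0.11, Ezh2 0.30 and Rbbp4 0.53 (Setdb1), Eed 0.13 (TKO against Hp1α/β), and Ezh2 0.012, Mtf2 −0.58 and Rbbp4 1.10 (set B against A). Genes higher and lower were then 2 and 1 (Hp1α), 1 and 1 (Hp1α/β), 0 and 1 (Hp1α/γ), 1 and 4 (TKO) and 5 and 2 (Setdb1), with 1 higher in the TKO against Hp1α/β and 2 lower in set B. In the same order, 27.2%, 26.8%, 37.8%, 74.4%, 77.4%, 73.9% and 17.1% of all genes passed. The Ezh1 to Ezh2 ratio on CPM was −0.30 (Hp1β), 0.10 (Hp1β/γ) and 0.25 (set B against A) on the log2 scale.

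With each library left out in turn, the number higher ran from 1 to 3 (Hp1α and Hp1β), 1 to 2 (Hp1α/β), 1 to 6 (Hp1α/γ, 6 without its library 2, where 67.1% of all genes passed), 1 to 2 (set B, with 1 to 2 lower) and 2 to 4 (interaction). The share of all genes that passed ran from 38.8% to 40.4% (Hp1α), 43% to 52.4% (Hp1β), 36% to 40.5% (Hp1α/β), 30.2% to 67.1% (Hp1α/γ), 17.8% to 29.6% (set B) and 40.4% to 44.3% (interaction). Suz12 ran from −0.18 to 0.028 and Phf19 from −0.049 to 0.034 in the Hp1β KO, Mtf2 from −0.033 to 0.056 in the Hp1α/β DKO and from −0.10 to 0.25 in the Hp1α/γ DKO, and Ezh2 from −0.072 to 0.025 and Suz12 from −0.0068 to 0.11 in set B against A.

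Equal replicate numbers did not pair the libraries, since their deviations correlated at −0.042 to 0.051. With the replicate number as a block, 65 calls were made against 66 without it, and Mtf2 in the Hp1α/γ DKO was −0.010.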
